A study of Mus musculus with 8 samples.

Results

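Genes of sterol and fatty acid synthesis were compared between a pair of cell populations sorted from mouse bone marrow. The gene set was a list of symbols for the enzymes, regulators and a carrier of cholesterol and fatty acid synthesis, taken as listed. Of 31 listed symbols, 30 were found among the 18790 named genes of the deposited tables. Hmgcs1 was not analysed here. All 30 passed the filter on low counts and entered the test.

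Cells make cholesterol from acetyl-CoA through mevalonate, the isoprenoid diphosphates, squalene and lanosterol. Saturated fatty acids are built by Acly, Acaca and Fasn and are then lengthened by ELOVL elongases and given double bonds by SCD and FADS desaturases. The transcription factors SREBP1 and SREBP2, encoded by Srebf1 and Srebf2, drive many of these genes when sterols run low: SCAP escorts them out of the endoplasmic reticulum, and INSIG proteins hold them back there. Both branches supply membrane to dividing and maturing marrow cells.

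The libraries came from femoral marrow of untreated C57BL/6 mice, all of them bearing the Csf1r-EGFP transgene, a green fluorescent reporter under the promoter of the macrophage growth factor receptor gene Csf1r. The CD11b+ group was sorted as CD11b+, F4/80+, VCAM1+, Ly6G- and low for the reporter, and the CD11b- group as CD11b-, F4/80+, VCAM1+ and reporter positive. Each group had 4 biological replicates, and the sources used here state neither animal age nor whether animals were pooled. SmartSeq2, a full-length cDNA protocol for small amounts of RNA, was used for every library, and totals of named genes ran from 27337092 to 47844998 counts per library. The series title raises the question of whether such sorts hold macrophages or other cells that carry pieces of them.

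Levels are given as CPM, a gene's counts scaled to a common total of counts on named genes per library. Itgam, which encodes CD11b, was at 235 to 346 CPM in CD11b+ against 0.143 to 15.3 CPM in CD11b- libraries. Marker lists of other cell types moved with the groups. Of 15 erythroid genes all 15 were lower in CD11b+, with summed levels of 833 to 1353 CPM against 35513 to 47452 CPM in CD11b-. Cell cycle genes were lower for 20 of 22 (8456 to 9020 against 22224 to 26647 CPM) and B cell precursor genes for 9 of 10 tested (53.6 to 136 against 1237 to 2594 CPM). Primary granule genes were higher in CD11b+ for 6 of 6 (60229 to 87305 against 481 to 6843 CPM), neutrophil genes for 10 of 13 (68804 to 96336 against 161 to 769 CPM) and eosinophil genes for 6 of 9 (6837 to 19606 against 71.6 to 472 CPM). Of 8 basophil and mast cell genes 2 were higher (1872 to 4697 against 277 to 4664 CPM). The resident macrophage list had 4 higher and 3 lower of 18, with sums of 1810 to 2081 and 1465 to 1934 CPM. Transcripts of listed genes were thus present in both groups, and the sums do not tell which of them contributed most. No list had a gene in the tables that was at 0 in every library of a group. The part of these cell types in the differences described here was not tested, and in bulk RNA fewer cells of a type and less RNA per cell cannot be told apart.

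Calls among the sterol and fatty acid synthesis genes went in both directions, as calls did among all genes tested. Of the 30, 4 were higher in CD11b+ (Acly, Elovl5, Sc5d and Srebf1), 4 were lower (Scd1, Fads1, Fdft1 and Elovl6) and 22 were not called, at an adjusted p of 0.05 (edgeR quasi-likelihood test, Benjamini-Hochberg over all genes). Across the 11965 genes tested 29.7% were called, 14.6% higher and 15.0% lower, so the share of members called, 26.7%, was close to that of all genes. The libraries of the groups did not overlap for 9 members, 4 with CD11b+ above and 5 with CD11b- above, against 36.5% of all genes tested, 18.1% with CD11b+ above and 18.4% with CD11b- above. The median log2 fold change of CD11b+ over CD11b- was 0.37 for the members, with 21 of 30 above 0, and -0.01 over all genes tested, with 5919 above 0. Among the desaturases and elongases 4 of 7 were called, and among the enzymes from mevalonate to cholesterol 2 of 14.

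**Figure D1:**
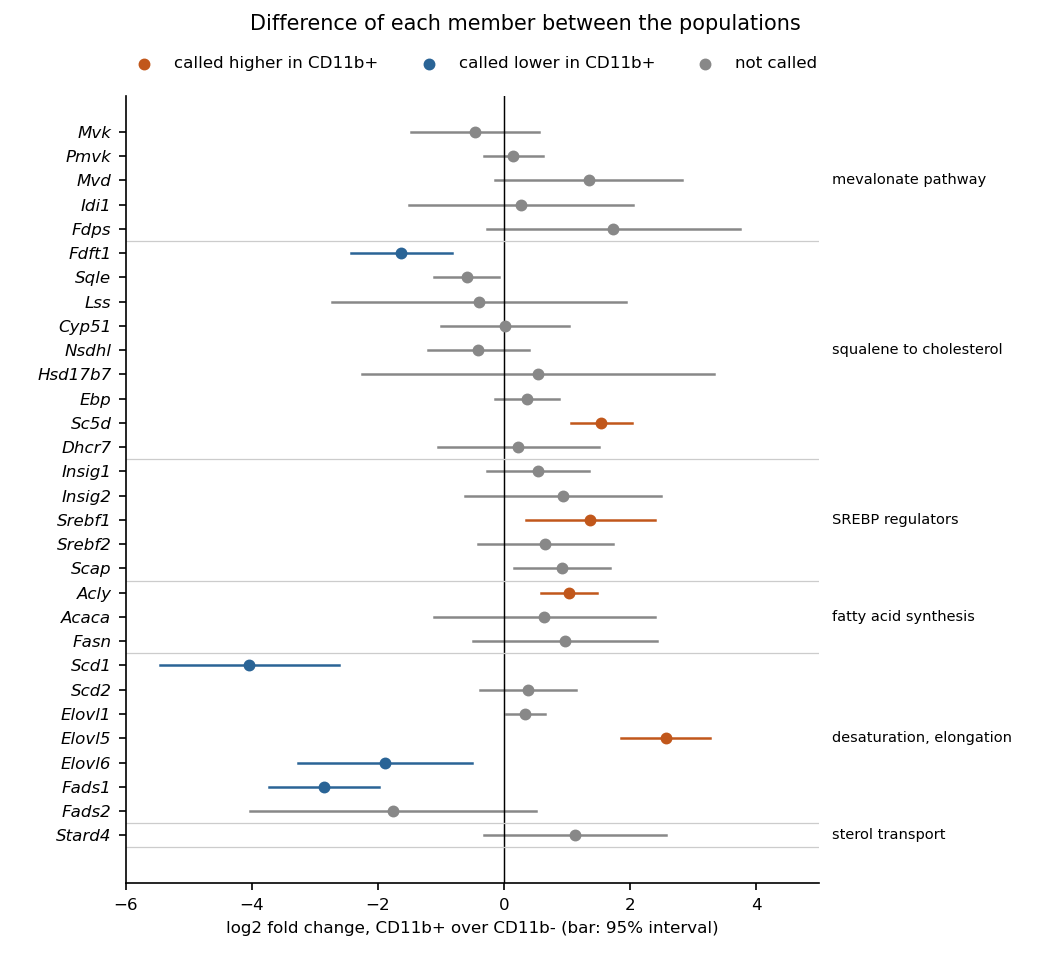
The log2 fold change of each of 30 genes, CD11b+ over CD11b-, from edgeR, with its 95% interval as a bar, grouped by role. Coloured points were called, 4 higher and 4 lower in CD11b+, with the largest distances from 0 for Scd1 (-4.04), Fads1 (-2.86) and Elovl5 (2.57), and grey points were not called.

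Promoter sequence was examined because SREBPs act with the CCAAT-binding factor NF-Y at many of these genes. RefSeq promoters of build GRCm38.p6, taken as the 250 bases before a gene's start, were matched by symbol for 23 of the 30 genes. Scd1, Scd2, Fads1, Fdft1, Fdps, Sqle and Stard4 had no entry. Shown 5′ to 3′ on the gene's strand are the promoters of the called genes that have a single entry, Elovl5 (chr9:77917115-77917364, plus strand), Sc5d (chr9:42264301-42264550, minus strand), Acly (chr11:100528001-100528250, minus strand) and Elovl6 (chr3:129532136-129532385, plus strand). Capitals mark CCAAT on either strand.
Elovl5: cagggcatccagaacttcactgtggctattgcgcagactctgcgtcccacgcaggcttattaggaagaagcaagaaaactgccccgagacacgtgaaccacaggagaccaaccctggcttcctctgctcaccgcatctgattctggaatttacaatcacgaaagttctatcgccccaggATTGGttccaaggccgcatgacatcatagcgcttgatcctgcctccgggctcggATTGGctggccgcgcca
Sc5d: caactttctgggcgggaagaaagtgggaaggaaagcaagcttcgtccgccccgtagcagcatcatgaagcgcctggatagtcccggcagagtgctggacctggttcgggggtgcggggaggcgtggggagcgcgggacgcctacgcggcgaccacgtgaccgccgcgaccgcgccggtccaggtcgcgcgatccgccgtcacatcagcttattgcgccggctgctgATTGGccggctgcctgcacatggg
Acly: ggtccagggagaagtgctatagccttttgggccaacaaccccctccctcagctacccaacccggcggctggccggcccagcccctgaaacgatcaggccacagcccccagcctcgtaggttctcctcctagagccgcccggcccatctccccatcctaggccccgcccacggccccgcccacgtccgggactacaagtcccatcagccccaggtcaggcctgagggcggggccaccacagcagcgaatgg
Elovl6: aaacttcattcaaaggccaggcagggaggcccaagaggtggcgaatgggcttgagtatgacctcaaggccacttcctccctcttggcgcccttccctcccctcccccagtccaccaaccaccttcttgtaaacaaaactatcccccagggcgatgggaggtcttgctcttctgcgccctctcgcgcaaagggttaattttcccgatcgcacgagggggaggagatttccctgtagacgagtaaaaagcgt
The Elovl5 promoter held 2 CCAAT matches, starting 71 and 17 bases before the gene's start, and the Sc5d promoter 1, starting 24 bases before it. Acly and Elovl6 had none.

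Of the 23 genes with an entry, 18 (78.3%) had CCAAT in at least 1 of their promoters. Among tested genes the share was 40.8% of 9159, and over all 32851 promoters it was 33.8%. The E-box CACGTG was present for 6 of the 23 (26.1%), Elovl5 and Sc5d included, against 10.1% of tested genes and 6.02% of all promoters. GGGCGG was present for 18 (78.3%), against 62.5% of tested genes and 32.7% of all promoters. A sterol element written as TCACNCCAC matched none of the 23, and 1.23% of tested genes and 1.05% of all promoters. At shares this low, the lack of a match among 23 genes says little, and variant forms of the element were not searched. All motifs were searched on both strands, matches of different motifs could overlap, and a gene with several entries counted once if any matched. A match is a description of letters and not of binding.

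None of the 5 mevalonate and isoprenoid enzymes was called by edgeR. Pmvk, the kinase that acts on phosphomevalonate, was at 88.0, 81.3, 68.2 and 66.4 CPM in CD11b+ replicates 1 to 4 and at 59.6, 66.8, 88.4 and 65.3 CPM in CD11b- (log2 0.15, 95% interval -0.32 to 0.62, edgeR adjusted p = 0.661). The ranges of the groups overlapped almost fully. Mvd, the decarboxylase that yields isopentenyl diphosphate, was at 16.9, 17.3, 13.6 and 10.7 CPM in CD11b+ against 4.47, 1.46, 12.5 and 4.57 CPM in CD11b-. CD11b- replicate 3 was the only library of its group inside the CD11b+ range. The difference was not called (log2 1.35, interval -0.14 to 2.83, edgeR adjusted p = 0.168), but without CD11b- replicate 3 it was (4.48-fold higher in CD11b+, adjusted p = 0.0243). Mevalonate kinase Mvk, at 8.43 ± 3.62 and 11.9 ± 1.88 CPM (SD, n = 4), was not called (log2 -0.46, interval -1.48 to 0.56).

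The isoprenoid enzymes Idi1 and Fdps had few counts. Idi1, the isopentenyl diphosphate isomerase, was at 2.58 ± 0.261 CPM in CD11b+ against 2.21 ± 1.14 CPM in CD11b- (SD, n = 4). Farnesyl diphosphate synthase Fdps was at 1.53 to 5.40 CPM in CD11b+ against 0.402 to 2.29 CPM in CD11b- (log2 1.74, interval -0.27 to 3.75). These levels are uncertain, since 64.1% of the 50-base windows of Fdps transcripts and 28.6% of those of Idi1 occur in transcripts of other annotated genes, mainly gene models without a standard name. The sources used here do not say how such reads were counted.

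From squalene to cholesterol, squalene synthase was lower in CD11b+ and a late desaturase was higher, and the other 7 enzymes were not called. Fdft1, squalene synthase, which commits farnesyl diphosphate to sterols, was at 14.98, 17.7, 22.7 and 15.9 CPM in CD11b+ against 32.6, 39.1, 77.96 and 75.1 CPM in CD11b-. Every CD11b- library was above every CD11b+ library, and CD11b- replicates 3 and 4 were highest. The gene was 3.10-fold lower in CD11b+ (log2 -1.63, SE 0.36, edgeR adjusted p = 0.00645). Its exons overlap those of the cathepsin gene Ctsb on the other strand over 18.3% of their length, and the library protocol does not mark strand. Of its transcript windows of 50 bases, 30.7% also occur in Ctsb or a gene model without a standard name, so its level is uncertain. Ctsb was at 1982 ± 87.1 CPM in CD11b+ against 4970 ± 393 CPM in CD11b- (SD, n = 4), 2.44-fold lower, the same direction as Fdft1. The part of shared reads in the Fdft1 difference was not tested.

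Sc5d, the desaturase that acts late on the sterol ring, was at 54.7, 55.0, 45.5 and 56.7 CPM in CD11b+ against 19.9, 17.9, 15.2 and 22.1 CPM in CD11b-. The groups were far apart beside a small spread within each. Sc5d was 2.92-fold higher in CD11b+ (log2 1.55, SE 0.22, edgeR adjusted p = 0.000431), and its promoter is the second of those printed.

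Squalene epoxidase Sqle, a rate-controlling oxygen-dependent step, was at 62.9, 35.0, 54.4 and 43.3 CPM in CD11b+ against 66.4, 67.2, 86.9 and 81.5 CPM in CD11b-. All CD11b- libraries were above all CD11b+ libraries, although the difference did not pass (log2 -0.59, interval -1.11 to -0.07, edgeR adjusted p = 0.0864). Ebp, a sterol isomerase and per kb of exon the highest of this stretch in both groups, was at 69.0, 69.5, 81.3 and 99.7 CPM in CD11b+ against 54.7, 47.8, 66.0 and 86.7 CPM in CD11b-. Its groups overlapped (log2 0.36, interval -0.15 to 0.87, edgeR adjusted p = 0.283).

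The other enzymes of this stretch, Cyp51, Nsdhl, Hsd17b7, Dhcr7 and Lss, were not called. Cyp51, the lanosterol demethylase, was at 36.0 ± 12.9 and 37.4 ± 26.1 CPM (SD, n = 4), and its log2 fold change of 0.01 (interval -1.002 to 1.03) took either sign under other settings. Nsdhl, which removes sterol methyl groups, was at 17.4 ± 5.33 and 23.8 ± 7.4 CPM, and the reductase Dhcr7 at 12.6 ± 5.88 and 11.2 ± 6.34 CPM (SD, n = 4). A pair of genes had a library near or at 0 beside high levels in its replicates. Lss, which closes lanosterol's rings, had 5 counts (0.127 CPM) in CD11b+ replicate 2 and 10.9 to 29.9 CPM in the other CD11b+ libraries. Hsd17b7, a sterol ketone reductase, had 0 counts in CD11b- replicate 3, which allows up to 0.0927 CPM by counting error alone, and 6.06 to 19.6 CPM in the others. The 95% intervals of these genes were accordingly wide, from -2.73 to 1.93 for Lss and from -2.25 to 3.33 for Hsd17b7 on the log2 scale. With libraries left out in turn, the log2 fold change ran from -1.15 to 0.02 for Lss and from 0.13 to 1.33 for Hsd17b7.

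Summed over the 14 sterol enzymes, levels were 397 ± 37.5 CPM in CD11b+ against 404 ± 39.0 CPM in CD11b- (SD, n = 4). The sums of the groups overlapped, from 348 to 435 CPM and from 369 to 448 CPM.

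**Figure D2:**
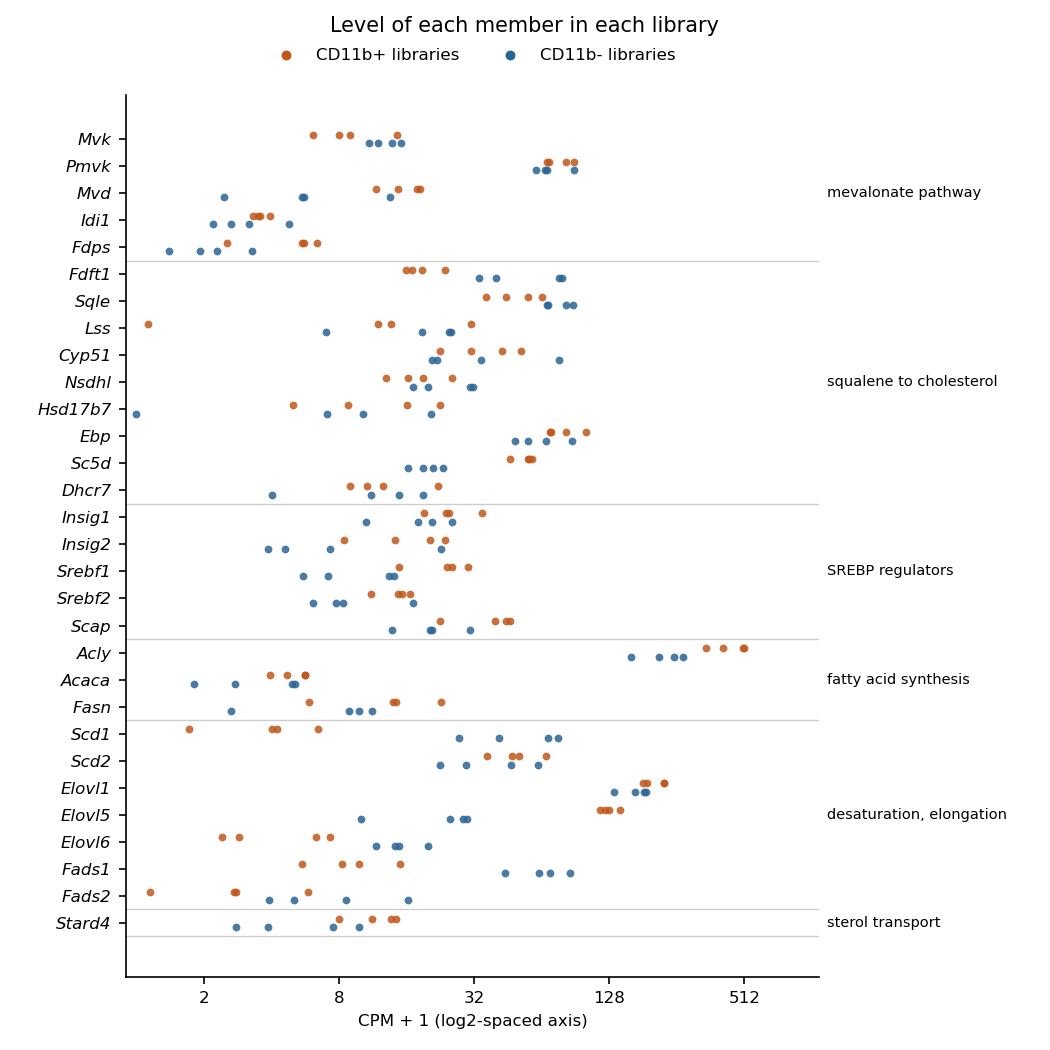
CPM + 1 on a log2-spaced axis for each of 30 genes, with the 4 CD11b+ libraries in orange and the 4 CD11b- libraries in blue, grouped by role. The colours separate for 9 genes, among them Scd1, Fads1, Elovl5, Sc5d and Acly, and mix for most mevalonate and sterol enzymes. The points farthest left are Hsd17b7 in CD11b- replicate 3 and Lss and Fads2 in CD11b+ replicate 2.

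All 5 regulators had a log2 fold change above 0, and 1 was called. Srebf1, whose product drives fatty acid synthesis genes, was at 29.0, 13.8, 24.4 and 23.3 CPM in CD11b+ against 4.54, 12.4, 6.12 and 13.1 CPM in CD11b-. The groups did not overlap, with 13.8 CPM as the lowest CD11b+ and 13.1 CPM as the highest CD11b- value. Srebf1 was 2.58-fold higher in CD11b+ (log2 1.37, SE 0.46, edgeR adjusted p = 0.0485). The call held in 9 of 19 alternatives (adjusted p from 0.0157 to 0.128) and was lost without CD11b+ replicate 1, 3 or 4 or CD11b- replicate 1 or 3 (up to 0.128).

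Scap, the SREBP escort, was at 21.5, 43.4, 45.3 and 38.8 CPM in CD11b+ against 19.3, 29.5, 12.7 and 19.9 CPM in CD11b-. CD11b+ replicate 1 lay inside the CD11b- range. Exons of Scap overlap a gene model on the other strand over 13.2% of their length. The difference was not called (log2 0.93, interval 0.16 to 1.69, edgeR adjusted p = 0.0693) but was without CD11b+ replicate 1 (adjusted p = 0.0365) or CD11b- replicate 2 (adjusted p = 0.0363). Insig1, the sterol-induced retention protein, was at 33.6, 23.8, 18.2 and 23.1 CPM in CD11b+ against 16.9, 24.5, 9.58 and 19.7 CPM in CD11b-. These values overlapped (log2 0.54, interval -0.27 to 1.35, edgeR adjusted p = 0.315). Insig2, its relative, was at 15.7 ± 6.82 and 8.64 ± 8.87 CPM (SD, n = 4) and was not called (log2 0.94, interval -0.61 to 2.50). Its CD11b- value of 21.8 CPM in replicate 1 stood beside 2.87 to 6.33 CPM in the other CD11b- libraries, and without that library Insig2 was called (3.79-fold higher in CD11b+, edgeR adjusted p = 0.04). Srebf2, whose product drives sterol genes, was at 13.4 ± 2.34 and 8.82 ± 4.90 CPM (log2 0.66, interval -0.41 to 1.73). Stard4, a cholesterol carrier of the cytosol, was at 12.7, 10.2, 13.3 and 6.97 CPM in CD11b+ against 2.85, 1.77, 8.83 and 6.51 CPM in CD11b- (log2 1.13, interval -0.31 to 2.57, edgeR adjusted p = 0.236).

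Of the 3 fatty acid synthesis genes 1 was called, Acly, which makes cytosolic acetyl-CoA from citrate. It was at 411, 507, 504 and 344 CPM in CD11b+ against 272, 159, 211 and 247 CPM in CD11b-. All CD11b+ libraries were above all CD11b- libraries. Acly was 2.05-fold higher in CD11b+ (log2 1.04, SE 0.20, edgeR adjusted p = 0.00311).

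The enzymes that follow Acly were low. Fasn, the fatty acid synthase, was at 12.9, 13.4, 21.8 and 4.87 CPM in CD11b+ against 8.80, 7.89, 1.64 and 10.2 CPM in CD11b-. Its groups overlapped (log2 0.97, interval -0.50 to 2.43, edgeR adjusted p = 0.322). Acaca, the acetyl-CoA carboxylase that makes malonyl-CoA, was at 3.98 ± 0.828 and 2.65 ± 1.63 CPM (SD, n = 4; log2 0.64, interval -1.11 to 2.39). Of its transcript windows of 50 bases, 49.1% also occur in another annotated gene, so its level is uncertain. Per kb of exon, Acly and Elovl1 were the highest of the 30 genes, with 83.6 and 74.9 CPM per kb in CD11b+ and 42.1 and 61.2 in CD11b-. Acaca was the lowest on that scale in both groups, at 0.233 and 0.155 CPM per kb.

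Desaturases and elongases showed the largest differences of the set, in both directions. Scd1, a stearoyl-CoA desaturase that makes monounsaturated fatty acids, was at 5.42, 0.710, 3.24 and 3.03 CPM in CD11b+ against 40.4, 26.4, 67.1 and 74.8 CPM in CD11b-. The highest CD11b+ library was well below the lowest CD11b- library. Scd1 was 16.5-fold lower in CD11b+ (95% interval 6.15 to 44.2, log2 -4.04, SE 0.63, edgeR adjusted p = 0.000915).

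Scd2, the paralog, did not follow it. It was at 35.7, 46.2, 66.0 and 49.7 CPM in CD11b+ against 45.7, 60.7, 28.4 and 21.7 CPM in CD11b- (log2 0.38, interval -0.38 to 1.14, edgeR adjusted p = 0.459). Its groups overlapped. In transcript windows of 50 bases, 4.61% of Scd1 and 4.01% of Scd2 also occurred in other genes, mainly of the SCD family.

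Polyunsaturated fatty acids are made by FADS desaturases together with ELOVL5. Fads1 and Elovl5 were called in opposite directions, and Fads2 was not called. Fads1 was at 7.26, 4.46, 14 and 8.84 CPM in CD11b+ against 43.1, 68.6, 61.3 and 84.8 CPM in CD11b-. No CD11b+ library came near the CD11b- range. Fads1 was 7.26-fold lower in CD11b+ (log2 -2.86, SE 0.39, edgeR adjusted p = 0.000373). Fads2, which acts before it, had low levels of 0.152 to 4.83 CPM in CD11b+ against 2.89 to 15.2 CPM in CD11b-. The difference was 3.40-fold (log2 -1.77, interval -4.03 to 0.50, edgeR adjusted p = 0.238), and it was 5.87-fold without CD11b+ replicate 3 and 2.29-fold without CD11b- replicate 1, not called in either case.

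Elovl5, the elongase of polyunsaturated fatty acids, was at 115, 127, 122 and 142 CPM in CD11b+ against 24.1, 27.5, 9.05 and 28.6 CPM in CD11b-. The lowest CD11b+ library was far above the highest CD11b- library. Elovl5 was 5.92-fold higher in CD11b+ (log2 2.57, SE 0.31, edgeR adjusted p = 0.000188), and its promoter is the first of those printed. Elovl6, which lengthens the products of fatty acid synthase, went the other way, at 5.34, 1.88, 1.42 and 6.33 CPM in CD11b+ against 13.3, 18.9, 13.8 and 10.7 CPM in CD11b-. The groups did not overlap. It was 3.70-fold lower in CD11b+ (log2 -1.89, SE 0.62, edgeR adjusted p = 0.0437), but the call held in 7 of 19 alternatives (adjusted p from 0.00763 to 0.170) and, with libraries left out in turn, only without CD11b+ replicate 4 (up to 0.107 for the other 7).

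Elovl1, the elongase of very long saturated chains, was at 188, 224, 180.5 and 224 CPM in CD11b+ against 181.5, 166, 134 and 186 CPM in CD11b-. The groups overlapped, and the difference was not called (1.27-fold, log2 0.34, interval 0.03 to 0.65, edgeR adjusted p = 0.0952).

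The 10 genes from Acly to Fads2 summed to 856 ± 79.3 CPM in CD11b+ against 599 ± 68.8 CPM in CD11b- (SD, n = 4). Without Acly the sums were 415 ± 29.2 and 376 ± 39.5 CPM.

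Ratios between members within a library do not depend on how libraries are scaled to each other. Of 6 ratios compared, 3 had groups that did not overlap: Scd2 over Scd1, Elovl6 over Elovl5 and Elovl6 over Elovl1. Scd2 counts were 6.56, 64.0, 20.3 and 16.4 times those of Scd1 in CD11b+ and 1.13, 2.30, 0.423 and 0.290 times in CD11b-. Scd1 thus held a larger share of the pair in every CD11b- library. The mean log2 ratio differed by 4.68.

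For Elovl6 over Elovl5 the ratio was 0.0466, 0.0149, 0.0118 and 0.0446 in CD11b+ and 0.551, 0.689, 1.53 and 0.375 in CD11b-, a mean log2 difference of -4.80. The Elovl6 over Elovl1 ratio differed by -2.46 on the log2 scale. Each of the 3 had an exact two-sided permutation p of 0.0286, the smallest that 4 against 4 libraries can give. After Benjamini-Hochberg adjustment over 6 ratios it was 0.0571, which does not pass 0.05. A ratio could pass only if most of the 6 reached that smallest p together, however large its own difference. Insig2 over Insig1 (0.70 on the log2 scale, exact p = 0.371, adjusted 0.446), Srebf2 over Srebf1 (-0.69, exact p = 0.143, adjusted 0.214) and Fads2 over Fads1 (0.70, exact p = 0.486, adjusted 0.486) overlapped between the groups.

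**Figure D3:**
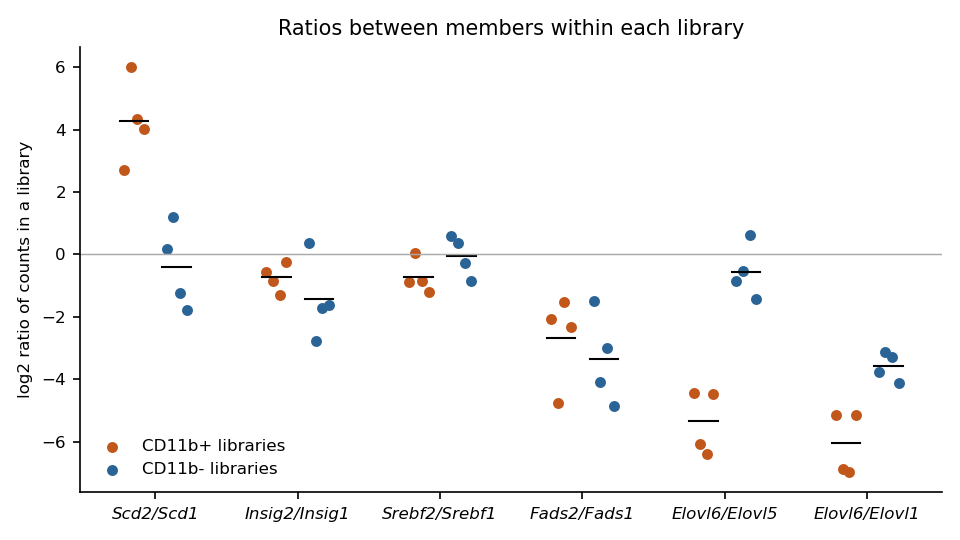
The log2 ratio of counts of pairs of genes within each library, CD11b+ in orange and CD11b- in blue, with black lines at group means. Scd2 over Scd1 is higher in every CD11b+ library, Elovl6 over Elovl5 and over Elovl1 are lower, and the other ratios mix.

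The CD11b- libraries differed among themselves in the granule gene Mpo, at 5827, 3966, 1457 and 413 CPM in replicates 1 to 4. Replicates 3 and 4, low in Mpo, had the higher Scd1 and Fdft1 and the lower Scd2 values of the group. Other members, Sqle, Ebp, Cyp51 and Dhcr7 among them, also split replicates 1 and 2 from 3 and 4. The called members apart from Scd1 and Fdft1 did not. The share of all genes that split so was not counted, and a link to Mpo was not tested. Without replicates 1 and 2, 3 members were higher and 3 lower, with 24.8% of all genes called. The fold was then 22.5 for Scd1 (edgeR adjusted p = 0.00212), 4.23 for Fdft1 (adjusted p = 0.00108), 8.29 for Fads1 (adjusted p = 0.00194), 6.96 for Elovl5 (adjusted p = 0.00272), 2.90 for Sc5d (adjusted p = 0.00513) and 1.96 for Acly (adjusted p = 0.0139). Those 6 folds were as large or nearly so without the Mpo-rich libraries. The CD11b- libraries left still held Mpo transcripts, and the part of granule cells in these folds was not tested. Srebf1 (2.42-fold, adjusted p = 0.110) and Elovl6 (3.26-fold, adjusted p = 0.170) were not called with 2 CD11b- libraries left, at folds close to those with all 4. Scd2 was then 1.99-fold higher in CD11b+, against 1.31-fold with all libraries, and still not called (adjusted p = 0.0684).

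A list of 52 related genes, drawn from the same pathways and not picked for how they moved, had 48 tested, of which 9 were higher in CD11b+, 4 lower and 35 not called. The share called, 27.1%, was close to the 29.7% of all genes. Elongation of fatty acids runs as a cycle of a condensing ELOVL enzyme, the ketoacyl reductase HSD17B12, a HACD dehydratase and the enoyl reductase TECR. Among the related genes of elongation and desaturation, 4 of 8 tested were higher and 1 lower, against 14.6% and 15.0% of all genes. Elovl7, at 3.88 to 5.64 CPM in CD11b+ against 0 to 0.743 CPM in CD11b-, was not called (edgeR adjusted p = 0.0686). Neither was the desaturase gene Fads3 (edgeR adjusted p = 0.294).

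Hacd2 was at 95.2, 114, 105 and 98.3 CPM in CD11b+ against 15.5, 21.2, 16.9 and 13.3 CPM in CD11b-, 6.34-fold higher (edgeR adjusted p = 1.38e-05). Hacd4 was 6.74-fold higher at 17.3 ± 3.14 against 2.68 ± 2.06 CPM (SD, n = 4; edgeR adjusted p = 0.0104), or 10.2-fold without CD11b- replicate 2. Hsd17b12 was 3.005-fold higher at 49.2 ± 6.12 against 16.9 ± 4.55 CPM (edgeR adjusted p = 0.00180) and Tecr 1.52-fold higher at 598 ± 28.5 against 405 ± 28.9 CPM (edgeR adjusted p = 0.00391). Of the other dehydratase genes, Hacd1 was not called (log2 0.75, interval -0.23 to 1.73, edgeR adjusted p = 0.248). Hacd3 was 1.62-fold lower (56.7 ± 8.61 against 95.2 ± 21.8 CPM, edgeR adjusted p = 0.0280), a call lost without CD11b+ replicate 1, 2 or 4 or CD11b- replicate 1, 3 or 4 (up to 0.0857).

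**Figure D4:**
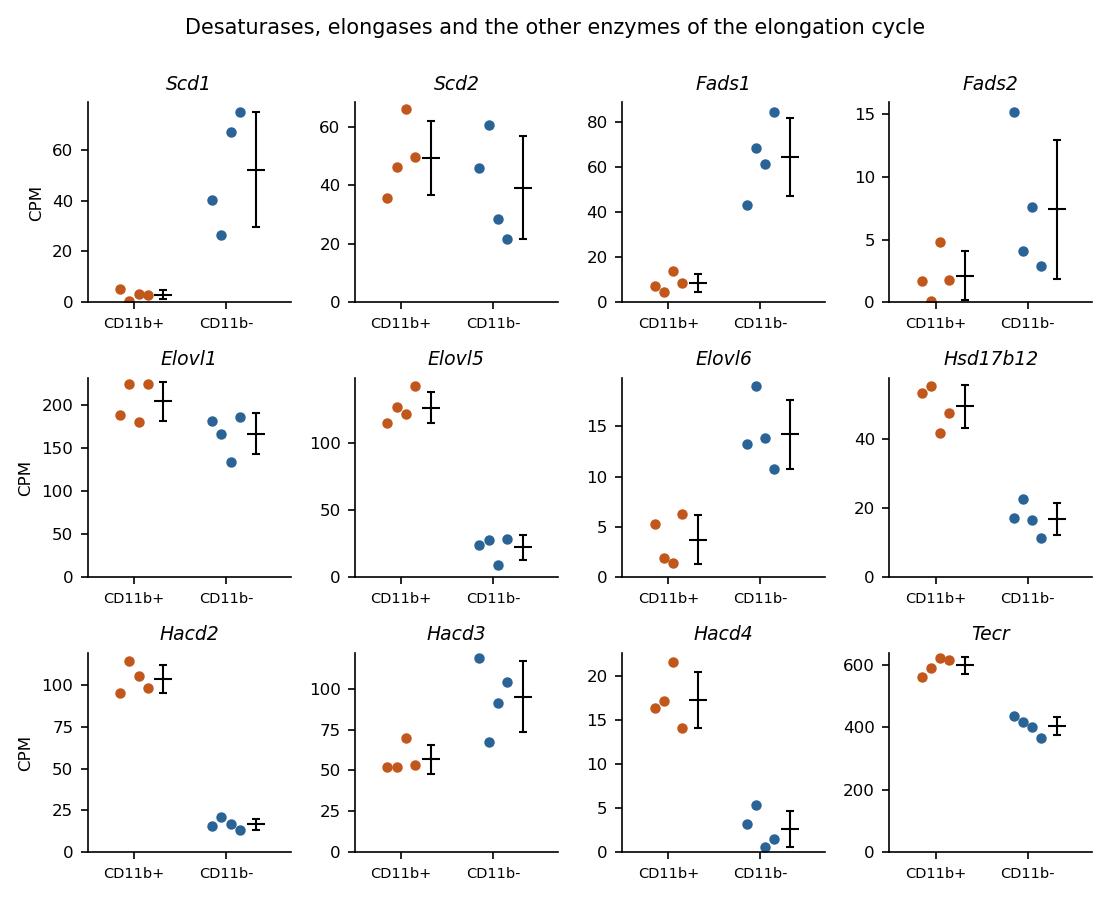
CPM per library for 4 desaturases, 3 elongases and 5 other enzymes of fatty acid elongation, each panel from 0 on its own scale, with the mean and SD of 4 libraries as bars. Scd1, Fads1 and Elovl6 are higher in CD11b- (blue), and Elovl5, Hsd17b12, Hacd2, Hacd4 and Tecr are higher in CD11b+ (orange).

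Other related genes were also called in both directions. In the rest of the sterol pathway, Msmo1, the sterol methyl oxidase, was 1.91-fold higher (36.9 ± 10.3 against 19.8 ± 3.54 CPM, edgeR adjusted p = 0.03), a call lost without CD11b+ replicate 3 or 4 or CD11b- replicate 1, 2 or 3 (up to 0.0990).

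Lbr, a nuclear membrane protein with sterol reductase activity, was 2.01-fold lower at 1104 ± 217 against 2265 ± 481 CPM (SD, n = 4; edgeR adjusted p = 0.00846). Tm7sf2 was at 7.34 to 9.24 CPM in CD11b+ against 0 to 3.15 CPM in CD11b-, without overlap. It was not called (log2 2.22, interval -0.46 to 4.89, edgeR adjusted p = 0.209). Acat2 overlapped between the groups and was not called (log2 -0.51, interval -1.13 to 0.11, edgeR adjusted p = 0.212). Of the 50-base windows of their transcripts, 19.5% for Tm7sf2 and 40.7% for Acat2 also occur in other annotated genes.

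Among 7 genes of SREBP control, 2 were higher, 1 lower and 4 not called. Rnf139, a ubiquitin ligase of the endoplasmic reticulum, was at 48.4, 41.8, 53.6 and 65.7 CPM in CD11b+ against 254, 209, 341 and 407 CPM in CD11b-, 5.64-fold lower (edgeR adjusted p = 4.9e-05). Its exons overlap those of other genes over 26.2% of their length, among them Tatdn1, which was at 5.25 ± 2.88 and 13.2 ± 4.62 CPM (SD, n = 4). Of the 50-base windows of Rnf139 transcripts, 29.3% also occur in other annotated genes. Erlin1 and Erlin2, cholesterol-binding proteins of the endoplasmic reticulum, were both higher. Erlin1 was 5.87-fold higher (68.1 ± 13.9 against 12.2 ± 10.8 CPM, edgeR adjusted p = 0.00390), or 10.2-fold without CD11b- replicate 1. Erlin2 was 2.52-fold higher (edgeR adjusted p = 0.0407), a call lost without any CD11b+ replicate or without CD11b- replicate 4 (up to 0.0949).

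In sterol traffic 1 of 8 genes was called. Soat1, which esterifies cholesterol for storage, was at 239.5, 232.5, 211 and 177 CPM in CD11b+ against 44.5, 15.9, 21.2 and 40.4 CPM in CD11b-. Its groups were far apart, with a 7.36-fold higher level in CD11b+ (edgeR adjusted p = 0.000105). Of 7 isoprenoid genes, Fntb, a subunit of protein farnesyltransferase, was 5.50-fold lower (9.01 ± 5.14 against 51.3 ± 7.14 CPM, SD, n = 4; edgeR adjusted p = 0.00262). Acyl-CoA supply (8 tested) and mitochondrial fatty acid synthesis (4 tested) had no called gene by edgeR.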

How the data were processed

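RNA-seq libraries of 8 samples, 4 per group, were analysed. The authors deposited raw whole-number counts by gene symbol, 1 file per library, and a table of CPM, and counts scaled to each library's total gave that CPM back within 0.0005. The submitters' processing notes name the build mm9 and the tools TopHat2, DESeq2 and HTSeq 0.10.0, with no role or order. The sources used here do not state the annotation, the strand setting or how reads with several matches were counted. Of 18817 rows, 27 without a gene symbol (0.205% to 0.514% of counts) were left out.

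The test was edgeR 4.0.16 in R 4.3.3, with TMM scaling, filterByExpr (minimum count 10, minimum total 15), the quasi-likelihood test, a prior count of 0.125 and Benjamini-Hochberg adjustment over all genes. Standard errors were worked back from the F statistic. The fit was tested on simulated counts. Ratios used 0.5 added counts and an exact permutation test; the planned Hmgcs1 over Fasn ratio was not run. Exon lengths, overlaps and 50-base windows came from GENCODE M21 (GRCm38). Floors are 3 counts and cover counting error only, since reads carry no molecular identifiers. p-values measure the spread between what the design text calls biological replicates, and no pair of them was alike within sampling noise (chi-square over degrees of freedom 125 to 217).

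Genes and lists were chosen with earlier results of these data known. The naming rule took all members, with every library for called members whose groups did not overlap and for the 2 most abundant of each role, the 4 called related genes of largest fold in each direction with a group mean of at least 10 CPM, and those that a count of 5 or fewer refers to. Some related genes are counted but not reported here. The DESeq2 1.42.0, limma 3.58.1 and other alternatives are given at the end.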

Additional observations from a re-analysis of the deposited data

How the results depend on the processing

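Over 19 alternatives, 6 of the 8 called members (Acly, Elovl5, Sc5d, Fads1, Fdft1 and Scd1) kept their call in each, and Srebf1 and Elovl6 did not. Of 564 member values under an alternative, 524 kept direction and side of the threshold, 22 lost a call, 6 gained one and 12 changed sign, all 12 in genes that were not called. Those were Pmvk (-0.0032) and Idi1 (-0.18) without the 2 CD11b- libraries highest in Mpo, Cyp51 (-0.054 without scaling beyond totals and -0.023 with CPM of at least 10 in 4 libraries), and, with libraries left out in turn, Lss (-1.15 to 0.023), Cyp51 (-0.19 to 0.58) and Dhcr7 (-0.12 to 0.53), all as log2 fold changes. Against 9 higher related genes, limma on log2(CPM + 1) called 14, and against 4 lower, DESeq2 called 7, the CPM filter 7 and a minimum of 1.5-fold 2. The cause was not tested. Library totals without the 20 most abundant genes moved the median gene from -0.01 to 0.09. DESeq2 called 4247 genes, with no adjusted p for 81.

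Correlations between the deviations of same-numbered libraries were weak, at 0.0197 to 0.0643, under the 0.1 required to treat them as pairs. All were above 0, and 6 of 8 libraries correlated best with their own number, so pairing was not settled. The replicate block called 3 higher and 3 lower members, without Srebf1 and Elovl6, and 3195 genes (26.7%) in all. Ratio tests with the block or without the Mpo-rich pair could not pass by design, and the Hmgcs1 over Fasn ratio was not run. With a library left out, they could pass only if most of the ratios reached the smallest possible p together. Between replicates of a group, chi-square over degrees of freedom, pooled over genes, was 125 to 217, so replicates spread more than counting error alone gives. That pooled value does not tell the part of counting error for genes of few counts, such as Lss and Fads2.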
